A study of Mus musculus with 10 samples.

Results

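Low-count windows of the autosomes were described in low-coverage genome sequencing of male mouse embryonic stem cells (mESCs). They were selected on the deposited read levels themselves: a window of 10 kb was counted among them if its mean level over 10 libraries lay between 0.1 and 0.5 times the median of all autosomal windows. By this rule 12508 of 246285 autosomal windows were members (5.08%, 125.08 Mb), out of 272566 windows in the series. A further 10356 autosomal windows lay under the lower bound, of which 6570 had no sequence in the reference, and 223421 lay above the upper bound. The level of a window was its number of reads, scaled to the same total in each library. The median level was 149.02 scaled reads, so that members had a mean of between 14.9 and 74.5.

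All libraries came from 2 independently derived lines of C57/Bl6 male mESCs in 2i/LIF, a medium of 2 kinase inhibitors and a cytokine that keeps the cells naive. Both lines were first grown in the Keniry2022 conditions and sampled at p0. Each was then divided between the Mulas2019 protocol, with passages at longer intervals, lower density and gelatin-coated plates, and the Keniry2022 protocol, with daily passages in suspension at higher density. Each protocol was sampled after 10 and 20 passages (p10 and p20), which gave 5 groups of 2 libraries, replicate 1 and replicate 2. The replicate numbers were taken as the lines, although the p20 Keniry2022 libraries went against them at several loci. The comparisons asked how the reads in low-count windows moved with passage and protocol. The libraries at equal passage differed in days of culture, whereas p10 Mulas2019 and p20 Keniry2022 were matched in days.

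A short read can be placed on the genome with certainty only where its sequence is unique. Some sequence occurs many times, such as transposable elements, or was recently duplicated, such as clusters of related genes. It collects few placed reads if reads of uncertain place are left out, although the DNA is present. Whether such reads were left out here is not stated. The mouse genome holds many young transposable elements and large families of chemosensory, immune and detoxification genes, in which neighbouring copies remain alike. Read number also depends on base composition, because sequence rich in A and T is amplified and sequenced with another efficiency than sequence rich in G and C.

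Stretches of the reference (GRCm38, the build mm10, plus strand) from 4 members are shown to illustrate the kinds of sequence found there. In each, capitals mark bases that lie within a 75-base stretch with at least 1 other exact copy in the assembly, on either strand, and lower case marks bases that do not. The first came from a many-copy window with the median repeated share of its class, which lay at chr1:27750001-27760000. It crossed from unique into repeated sequence, and its most common 75-base stretch occurred 129 times. The second came from the cluster with most members, on chromosome 14, and the third from a cluster of Obox pseudogenes on chromosome 7. They had at most 7 and 8 copies. The fourth came from a window in Skint6 that was mostly single-copy and low in G and C.
chr1:27754994-27755193: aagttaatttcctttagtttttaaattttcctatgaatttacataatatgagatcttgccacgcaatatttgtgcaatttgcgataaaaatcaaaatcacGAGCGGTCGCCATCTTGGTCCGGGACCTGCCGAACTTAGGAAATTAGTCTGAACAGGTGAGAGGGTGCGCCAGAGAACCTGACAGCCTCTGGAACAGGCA
chr14:44354789-44354988: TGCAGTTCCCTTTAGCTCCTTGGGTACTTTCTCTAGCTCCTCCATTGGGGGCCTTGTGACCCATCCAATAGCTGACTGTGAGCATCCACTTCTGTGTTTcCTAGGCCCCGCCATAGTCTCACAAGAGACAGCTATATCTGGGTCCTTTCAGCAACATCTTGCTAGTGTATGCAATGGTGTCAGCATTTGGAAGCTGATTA
chr7:14864908-14865107: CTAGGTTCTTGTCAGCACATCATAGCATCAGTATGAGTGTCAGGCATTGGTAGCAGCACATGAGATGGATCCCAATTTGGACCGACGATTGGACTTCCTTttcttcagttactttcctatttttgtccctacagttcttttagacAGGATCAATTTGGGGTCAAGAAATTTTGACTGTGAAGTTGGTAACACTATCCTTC
chr4:113154957-113155156: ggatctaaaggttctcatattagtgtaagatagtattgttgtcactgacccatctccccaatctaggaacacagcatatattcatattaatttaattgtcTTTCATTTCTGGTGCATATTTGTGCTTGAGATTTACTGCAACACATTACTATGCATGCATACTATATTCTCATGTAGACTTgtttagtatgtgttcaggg

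In the many-copy window on chromosome 1, 63.9% of the bases lay in repeated stretches, and the level was 0.325 of the autosomal median. In the window of the chromosome 14 cluster 76.7% of the bases did, and in that of the Obox pseudogenes 76.3%, with levels of 0.292 and 0.278. The window in Skint6, a gene of a family expressed in the thymus and skin, was the exception: 7.90% of its bases were repeated, its G and C content (GC) was 33.8%, and its level was 0.495, close to the upper bound. Among the 75-base stretches of members with a varied sequence, at least 50 different runs of 4 bases, the most common occurred 12566 times. It is shown whole, from a member on chromosome 1 with a level of 0.266.
chr1:25596401-25596475: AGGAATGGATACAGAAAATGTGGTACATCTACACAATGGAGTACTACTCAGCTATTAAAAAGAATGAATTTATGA

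The description of these windows as poorly mappable was borne out by the reference sequence, which the rule did not use. A stretch of 75 bases, the length of the reads, was tested at every 100 bases of each window for another exact copy. In members a median of 50% of these stretches were repeated, against 1% in windows above the upper bound and 91% in windows with sequence below the lower bound. In the middle 80% of members the repeated share ran from 26% to 68%. The soft-masked part of the reference, which marks interspersed and simple repeats, covered a median of 70.9% of members and 27.6% of the windows above the upper bound. Over 25% of the stretches were repeated in 11315 members (90.5%), compared with 6799 windows above the upper bound (3.04%).

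The level of a window fell step by step with its repeated share. Windows without a repeated stretch had a median level of 1.12 times the autosomal median, and 40 of 87007 of them were members. At a repeated share of 40% to 50% the median level was 0.44, and 66.8% of windows were members. At 50% to 60% the median was 0.359 and 88.9% were members. At 90% to 100% the median level was 0.00694, close to the value deposited for windows without a read, and 2 of 1933 windows were members. Across the 12428 members without an undetermined base, level and repeated share had a Pearson correlation of -0.64 and a Spearman correlation of -0.64, and level and GC had -0.28 and -0.26. Over 239314 autosomal windows under 3 times the median, level had a Spearman correlation of -0.51 with repeated share and of 0.73 with GC (Pearson -0.71 and 0.61). These are descriptions across windows, which are not independent and share libraries and base composition.

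**Figure D1:**
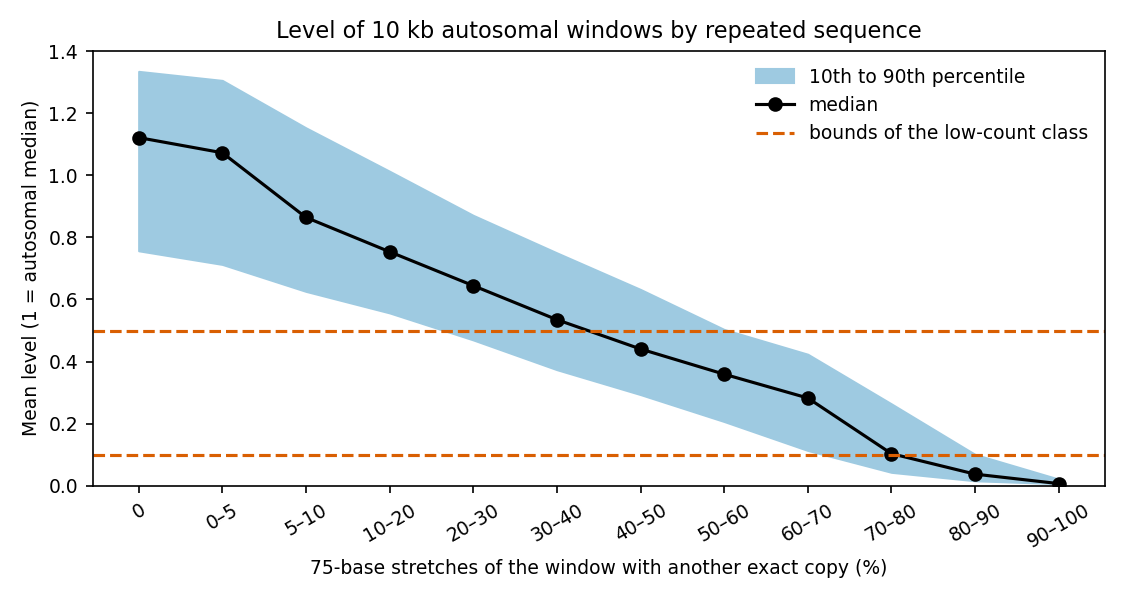
Mean level of 10 kb autosomal windows over the 10 libraries (vertical axis, 1 is the autosomal median) by the percent of their 75-base stretches with another exact copy (horizontal axis). Points are medians, the band spans 80% of windows, and dashed lines are the bounds of 0.1 and 0.5. The median fell from 1.12 without repeats to 0.44 at 40% to 50% repeated and 0.00694 at 90% to 100%.

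At the lower bound the nearest windows inside were chr12:18840001-18850000 and chr4:147020001-147030000, with 14.90 and 14.92 scaled reads, and the nearest outside were chr17:6300001-6310000 and chr7:77950001-77960000, with 14.896 and 14.901. At the upper bound the nearest windows inside were chr17:57390001-57400000 and chr12:19850001-19860000, with 74.504 and 74.510 scaled reads. The nearest outside were chr14:90950001-90960000 and chr5:59260001-59270000, with 74.511 and 74.513. No gap separated members from other windows at either bound.

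Members were divided by the kind of repeated sequence they held. In 8966 members (71.7%) most of the repeated stretches had 10 or more copies, as in interspersed repeats. In 2438 members (19.5%) most of them had fewer than 10 copies, as in duplicated genes. A further 1031 (8.24%) were mostly single-copy, with under 25% of stretches repeated, and 73 lay at assembly gaps. The mostly single-copy members had a median GC of 36.5%, compared with 40.3% in many-copy and 41.3% in few-copy members. Their median level, 0.471, was near the upper bound. The few-copy members lay together more often: 19.9% of them had no adjacent member, against 77.4% of the many-copy members. Both classes had a similar repeated share, with medians of 53% and 50%.

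Many-copy members were thus mostly scattered, and few-copy members mostly clustered. When members of a chromosome separated by at most 2 other windows were joined, they formed 7757 clusters. Of these, 5720 were single windows, which held 45.7% of members. Another 88 clusters of at least 10 members held 1479 (11.8%), and the largest had 52. These values depended on the joining: across at most 1 window 7.85% of members lay in clusters of that size, and across at most 5 windows 29.6% of members were single and the largest cluster had 91. A member was followed by another member in 23.6% of cases, and a window that was not a member in 4.09%. Of 2462 bins of 1 Mb, 526 had no member and 80 had at least 20, which held 18.99% of members.

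The share of windows that were members varied among autosomes. It was highest on chromosomes 12 (6.96%) and 14 (6.48%) and lowest on chromosomes 11 (2.138%) and 9 (3.43%). The first 5 Mb of sequence of each autosome, next to the centromere, contained 6.97% members, the last 5 Mb 4.28% and the parts between 5.16%.

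**Figure D2:**
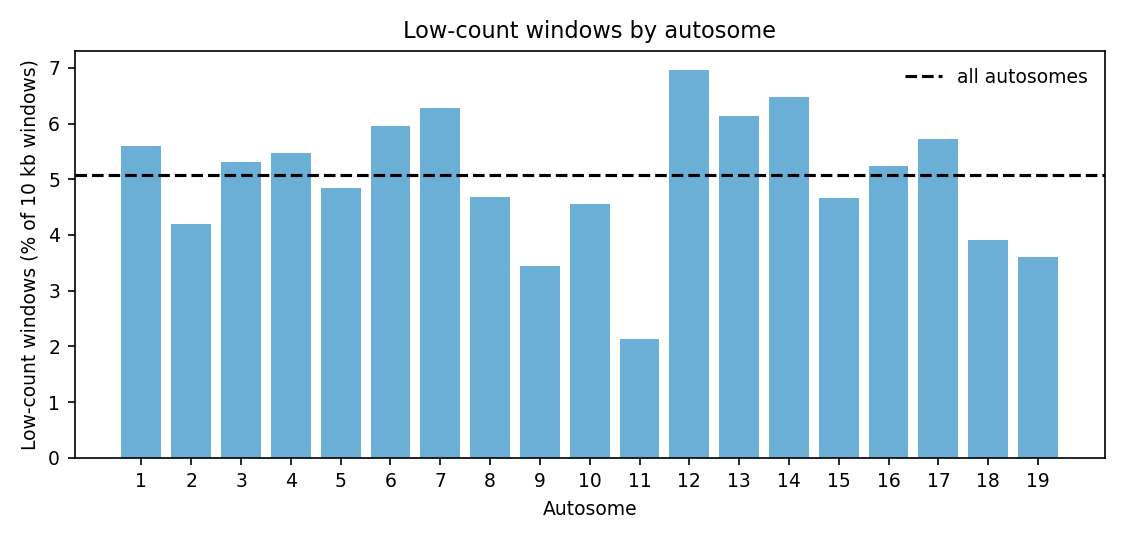
Low-count windows as a percent of the 10 kb windows of each autosome (bars), with the value over all autosomes, 5.08%, as a dashed line. Chromosomes 12 and 14 were highest at 6.96% and 6.48%, and chromosome 11 was lowest at 2.138%.

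The 10 largest clusters held 378 members (3.02%), and each was described by its genes. The largest, chr14:44180001-44770000, had 52 members among 59 windows and 18 annotated genes, nearly all of them predicted (Gm) genes. The cluster chr7:14680001-15150000 had 47 members in 47 windows and 20 genes, of which 18 were pseudogenes, mostly of Obox3 and Obox4, homeobox genes that are active in oocytes and early embryos. Chromosome 12 held 3 of the 10. Of these, chr12:18400001-18950000 had 47 members and 8 genes including 5730507C01Rik. The next, chr12:22690001-23190000, had 42 members and 8 genes, and a mean level of 0.178, the lowest of the 10 clusters. The third, chr12:115070001-115520000, had 29 members in the immunoglobulin heavy chain locus, among variable segments of the Ighv1 and Ighv8 families from which B cells assemble antibodies.

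The other large clusters differed in their genes. The cluster chr6:130570001-131020000 had 41 members among pseudogenes and predicted genes. The cluster chr9:88830001-89240000, with 34 members, contained Trim43b and Trim43c and the anti-apoptotic Bcl2 relatives Bcl2a1a and Bcl2a1b. Prl2c2 and Prl2c5, prolactin-related hormones of the placenta, lay in the cluster chr13:12940001-13250000, with 27 members. The cluster chr19:39600001-39900000, also with 27 members, held Cyp2c67, Cyp2c68, Cyp2c40 and Cyp2c69, cytochrome P450 enzymes that oxidise fatty acids and foreign compounds. The cluster chr13:67990001-68460000 had 32 members and 4 annotated genes, AA414992, Urml, Gm8016 and Gm46386.

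The autosomal annotation listed 46709 genes, and 1678 of them (3.59%) had at least 50% of their length in members. The share was 2.34% among protein-coding genes, 7.33% among pseudogenes and 1.34% among lncRNA genes. Obox genes and pseudogenes had 28 of 53. The natural killer cell receptors (Klra and Klrb), which sense self molecules on other cells, had 7 of 20, including Klra3, Klra8 and Klra9. Immunoglobulin kappa segments had 48 of 167, immunoglobulin heavy chain segments 44 of 208 and T cell receptor segments 47 of 263. Secretoglobins, which include androgen-binding proteins secreted in saliva and tears, had 15 of 53.

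Of the chemosensory families, vomeronasal type 2 receptors had 34 of 250 and type 1 receptors 43 of 366, both of which detect pheromones. Olfactory receptors, the largest family, had 90 of 1419 (6.34%), and bitter taste receptors 3 of 40. Among smaller families, the Prl family had 7 of 29, Speer genes 5 of 15, defensins 12 of 83, cytochrome P450 genes 15 of 134 and major urinary proteins 3 of 22. Zinc finger (Zfp) genes had 12 of 406 (2.96%), between the share of protein-coding genes (2.34%) and that of all genes (3.59%). No gene of the Ugt, Ces, Nlrp, Pcdh, Krtap and Amy families was placed mostly in members. Of 15 genes of naive pluripotency, among them Pou5f1, Nanog, Sox2 and Esrrb, 0 had 50% of their length in members, and their levels ran from 0.936 to 1.25 times the autosomal median.

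The libraries held 27270648 to 35354358 reads. A member had a median of 42 to 60 reads per library, so that counting error alone was large for single members and small for their sum. The p20 Keniry2022 libraries went against their replicate numbers at several loci (described last), and the fits of the summed share and of single windows were therefore also run with them crossed. The window fit with GC correction was run as labelled. Groups had 2 libraries. The p-values of the passage and protocol fits rest on the spread within groups, pooled over the groups, with the line as a random block. They cover these 2 lines only.

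The summed share of low-count windows was higher at p10 and p20 than at p0, most in p10 Mulas2019. At p0, members took 1.75% and 1.76% of autosomal reads in replicates 1 and 2. In p10 Mulas2019 they took 2.135% and 2.156%, and in p20 Mulas2019 1.92% and 1.94%. In p10 Keniry2022 they took 1.87% and 1.93%, and in p20 Keniry2022 1.82% and 1.83%. Thus both p0 libraries lay below all 8 later libraries, and the p10 Mulas2019 libraries lay above all others. The 95% confidence interval of a share (Wilson) was narrow, 1.744% to 1.754% for p0 replicate 1, and covers counting error only. At equal days of culture, p10 Mulas2019 was above p20 Keniry2022 in both lines.

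**Figure D3:**
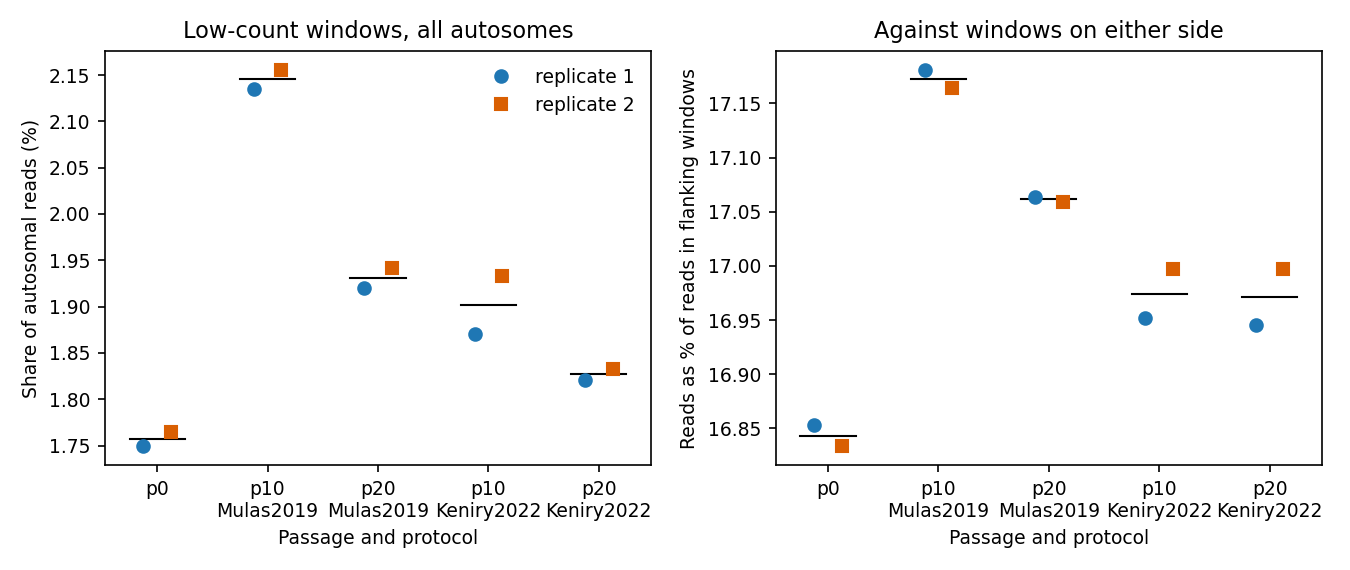
Reads in low-count windows as a percent of autosomal reads (left) and as a percent of the reads in windows on either side (right), by passage and protocol. Points are libraries of replicate 1 (circles) and replicate 2 (squares), lines are means of 2 libraries, and neither vertical axis starts at 0. On the left p0 lay at 1.75% and 1.76% and p10 Mulas2019 at 2.135% and 2.156%, whereas on the right all libraries lay between 16.8% and 17.2%.

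For the tests, the reads in members were divided by those in the other windows of the same autosome, and the log2 ratios of 19 autosomes and of all autosomes together were fitted with limma. Over all autosomes the ratio rose by 0.29 ± 0.01 (log2, SE) at p10 Mulas2019 against p0, by 0.14 ± 0.01 at p20 Mulas2019, by 0.12 ± 0.01 at p10 Keniry2022 and by 0.06 ± 0.01 at p20 Keniry2022. Each of the 19 autosomes rose in each of the 4 comparisons. At p10 Mulas2019 the rise ran from 0.16 on chromosome 12 to 0.35 on chromosome 15. Adjusted limma p-values ran from 1.07e-37 at p10 Mulas2019 to 0.00020 at p20 Keniry2022. They are too small, because autosomes of a library move together and were treated as separate features, and the 4 comparisons share the p0 libraries. With the p20 Keniry2022 replicate numbers crossed in the block, the highest of the 4 was 0.00526, and those of the other 4 comparisons ran from 3.46e-10 to 0.00387.

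The ratio was lower in Keniry2022 than in Mulas2019 at both passages, by -0.18 ± 0.01 at p10 (limma adjusted p = 6.36e-22) and by -0.08 ± 0.01 at p20 (limma adjusted p = 2.53e-07). It fell by 0.16 ± 0.01 from p10 to p20 in Mulas2019 and by 0.06 ± 0.01 in Keniry2022, with 19 of 19 autosomes lower in each case. With GC correction the protocol difference was -0.12 at p10 and -0.04 at p20, and with the GC of sequence found once -0.07 and -0.03, which passed in each case (highest limma adjusted p = 0.0165). The fall in Keniry2022 did not pass with the GC of sequence found once (-0.0195, limma adjusted p = 0.102) or against flanking windows, described below (-0.000259, limma adjusted p = 0.955). The fall in Mulas2019 did not pass against flanking windows either (-0.00938, limma adjusted p = 0.133). Treating each library as 1 value, the mean share of the 4 Keniry2022 libraries was 1.86% ± 0.0502 (SD) and that of the 4 Mulas2019 libraries 2.04% ± 0.124 (SD). The difference of -0.174 percentage points did not pass an exact two-sided permutation test (p = 0.0571; the smallest p this design allows is 0.0286). Keniry2022 was lower in 4 of 4 pairs matched for line and passage, and the exact sign-flip test gave p = 0.125, the smallest it allows. With the p20 Keniry2022 numbers crossed it was again lower in 4 of 4 pairs.

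Base composition moved with these changes. At p10 Mulas2019 against p0, the share of reads in members under 38% GC changed by 0.65 (log2), in members of 38% to 42% GC by 0.30 and in members over 42% GC by -0.06. Windows above the upper bound changed by 0.51, 0.14 and -0.24 in the same classes. Members and other windows therefore followed GC in the same order, and members were higher than the others in each class. When reads were divided by those expected from the GC of a window, the rise at p10 Mulas2019 was 0.20 ± 0.01 (limma adjusted p = 5.06e-14). When only the GC of sequence found once was used, it was 0.12 ± 0.01 (limma adjusted p = 4.68e-12). The other 3 rises against p0 also became smaller and still passed: with these corrections in turn they were 0.09 and 0.06 at p20 Mulas2019, 0.08 and 0.05 at p10 Keniry2022 and 0.05 and 0.03 at p20 Keniry2022 (highest limma adjusted p = 0.00443). The part of base composition in the remaining rise was not tested.

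Against their neighbours, the sum of all members changed little, whereas single autosomes moved in both directions. The 31714 windows above the upper bound that lay within 2 windows of a member themselves took 10.4% and 10.5% of autosomal reads at p0, 12.4% and 12.6% in p10 Mulas2019 and 10.7% and 10.8% in p20 Keniry2022. Reads in members were 16.9% and 16.8% of the reads in these flanking windows at p0, 17.2% and 17.2% in p10 Mulas2019 and 17.1% and 17.1% in p20 Mulas2019. They were 17.0% and 17.0% in p10 Keniry2022 and 16.9% and 17.0% in p20 Keniry2022. The ratio to flanking windows rose by 0.03 (log2; limma adjusted p = 0.000427) at p10 Mulas2019 and by 0.02 (limma adjusted p = 0.00791) at p20 Mulas2019. At p10 Mulas2019 the autosomes ran from -0.09 to 0.10, with 14 of 19 called higher and 1 lower. In p10 and p20 Keniry2022 its values were 0.01 and 0.01, which did not pass the test (limma, adjusted p = 0.0767 and adjusted p = 0.123). Keniry2022 against Mulas2019 differed by -0.02 at p10 (limma adjusted p = 0.0143) and by -0.01 at p20 (limma adjusted p = 0.282). Crossing the p20 Keniry2022 numbers changed none of these calls over all autosomes. This comparison was added after the data had been seen.

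**Figure D4:**
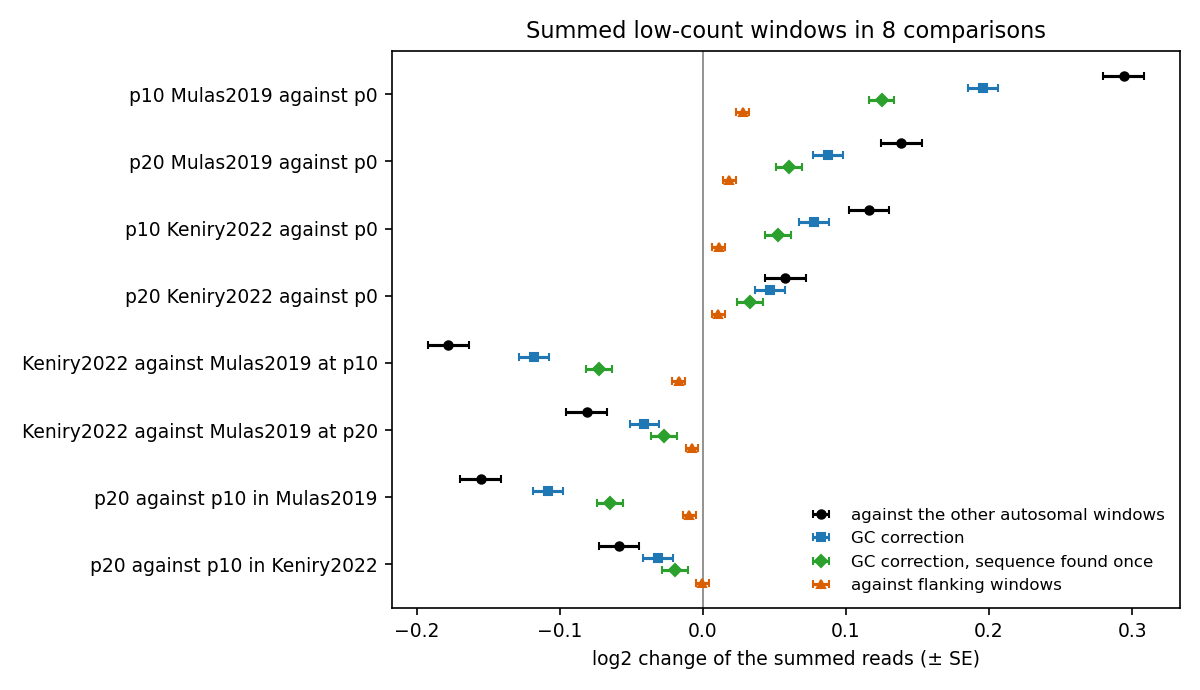
Change of the summed reads in low-count windows in 8 comparisons (log2, horizontal axis, bars are ± SE of the limma fit), computed against the other autosomal windows, with 2 corrections for GC, and against flanking windows. The change at p10 Mulas2019 against p0 was 0.29, 0.20, 0.12 and 0.03 in that order.

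The classes of members moved by different amounts. The mostly single-copy members took 0.168% and 0.170% of autosomal reads at p0 and 0.257% and 0.272% in p10 Mulas2019, a change of 0.65 (log2) against all windows that were not members and of 0.08 against flanking windows. The many-copy members took 1.29% and 1.30% at p0 and 1.57% and 1.57% in p10 Mulas2019, with changes of 0.28 and 0.02. The few-copy members took 0.278% and 0.282% at p0 and 0.299% and 0.301% in p10 Mulas2019, with changes of 0.10 and -0.04. In each of these classes both p10 Mulas2019 libraries lay above both p0 libraries as a share of autosomal reads. Members at assembly gaps took 0.00939% and 0.00992% at p0 and 0.00963% and 0.00895% in p10 Mulas2019, which overlapped. Median GC rose from the mostly single-copy to the many-copy and the few-copy class, in the order in which their changes became smaller.

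The 10 largest clusters are given as descriptions with no test. At p10 Mulas2019 against p0 the 4 with the lowest mean GC, 37.6% to 38.7%, changed by 0.32 to 0.64 (log2, reads against all autosomal windows that were not members). The 3 with 40.8% to 41.5% GC changed by 0.01 to 0.06 and the 3 with 43.8% to 45.1% by -0.22 to -0.08, and within both of these sets the change did not follow GC strictly. In 2 of the 3 clusters of 40.8% to 41.5% GC the sign depended on the denominator, and their mean levels relative to the autosomal median were slightly lower in p10 Mulas2019 than at p0. The chromosome 6 cluster, with a mean GC of 37.6%, had a level of 0.284 and 0.257 of the median of autosomal windows at p0 and of 0.412 and 0.410 in p10 Mulas2019. The Cyp2c cluster on chromosome 19, also with 37.6% GC, had 0.318 and 0.308 at p0 and 0.442 and 0.448 in p10 Mulas2019. The chromosome 12 cluster of 42 members, with 45.1% GC, had 0.192 and 0.200 at p0 and 0.164 and 0.164 in p10 Mulas2019. In the largest cluster, with 40.8% GC, the values overlapped, at 0.280 and 0.294 and at 0.280 and 0.283. In p20 Keniry2022 the chromosome 6 cluster was at 0.283 and 0.295 and the Cyp2c cluster at 0.319 and 0.346.

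Single members were then tested in a fit of all 250550 windows with a mean of at least 0.1 of the median. At p10 Mulas2019 against p0, 2735 members (21.9%) were higher and 144 (1.15%) lower at an adjusted limma p under 0.05, where 20.5% of all windows tested were higher and 15.7% lower. The higher share was near the background, and the lower share was far below it. The median change was 0.27 (log2) over members and 0.03 over all windows tested. Members that were higher had a median GC of 38.1%, those that were lower 45.3% and those not called 40.8%. Among the mostly single-copy members 730 of 1031 (70.8%) were higher, compared with 1835 of 8966 many-copy members (20.5%) and 169 of 2438 few-copy members (6.93%). After a GC correction 3 members were called in either direction, where 0.0243% of all windows were. At an unadjusted limma p under 0.05 there were 13.1% of members, above the 9.83% of all windows. The median change was then 0.14 over members and 0.00481 over all windows. Without GC correction, 1517 to 1801 members were called when p0 replicate 1 or either p10 Mulas2019 library was left out.

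In the other comparisons few members were called. At p20 Mulas2019 against p0 89 members were higher and 2 lower, where 1.19% and 0.313% of all windows were. At p10 Keniry2022 against p0 2 members were higher and 0 lower, where 0.0415% and 0.00279% of windows were, and 1262 members (10.1%) had an unadjusted limma p under 0.05, against 12.7% of all windows. Between the protocols at p10, 18 members were higher and 342 (2.73%) lower in Keniry2022, against a background of 2.54% and 3.22%. From p10 to p20 in Mulas2019 4 members were higher and 150 (1.20%) lower, against 0.959% and 1.42%. These counts rested on single libraries: the 91 calls of p20 Mulas2019 were 0 without p20 Mulas2019 replicate 2 and 37 without p0 replicate 1. The 360 between the protocols at p10 were 7 without p10 Keniry2022 replicate 1, and 76 and 48 without p10 Mulas2019 replicates 1 and 2. The 154 from p10 to p20 were 15 to 29 without any 1 of the 4 Mulas2019 libraries concerned. With GC correction limma called 0 members in each of these comparisons, where 0 to 2 of all windows were called. At an unadjusted p under 0.05 there were 716 to 874 members (5.72% to 6.99%), near the 5.60% to 7.07% of all windows. The shares of members called were thus near or below those of all windows.

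In 3 comparisons limma called 0 members at an adjusted p under 0.05. At p20 Keniry2022 against p0, 742 members (5.93%) had an unadjusted limma p under 0.05 (voom 705), against 6.41% of all windows, and 0 windows in all were called, a background of 0%. Between the protocols at p20, 704 members (5.63%) did (voom 804), against 9.83% of all windows, and 0.00279% of windows were called. From p10 to p20 in Keniry2022, 566 members (4.53%) did (voom 644), against 6.93% of all windows, and the background was again 0%. Voom, a limma fit on the recovered reads, also called 0 members in these comparisons.

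Finally, members were compared between the 2 lines, which asks whether a low mean can come from a difference between them. The fit used the 8 libraries other than p20 Keniry2022. It called 8 members (0.0640%), 3 higher and 5 lower in line 2 than in line 1. Among the 235929 autosomal windows tested, members included, 42 (0.0178%) were called. Over all chromosomes 238 windows (0.095%) were called, of which 194 lay on the Y chromosome (of 195 tested there) and 2 on the X chromosome. The share of members was thus above that of autosomal windows, but the 8 members lay at 3 loci, and the difference was not tested. As for the Y chromosome, the paper reports its loss in a line during derivation, before the culture conditions were compared. Whether the calls on the Y chromosome follow from that loss was not tested, and their direction is not given here.

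At chr14:43260001-43530000, 5 of 10 members were called, all lower in line 2. The locus contains 9 annotated genes, of which 1700001F09Rik and 5 Gm genes are listed as protein-coding. Over its 10 members the 4 libraries of line 1 had levels of 0.339 to 0.359 of the autosomal median (mean 0.351 ± 0.00936, SD), and the 4 of line 2 had 0.180 to 0.232 (mean 0.212 ± 0.0224, SD). The lines did not overlap, and the level of line 2 was 0.604 times that of line 1. Each locus was bounded by windows called in these same libraries, so the separation follows in part from that choice. Only the p20 Keniry2022 libraries lay outside it. The library labelled p20 Keniry2022 replicate 1 had 0.196, within the range of line 2, and that labelled replicate 2 had 0.364, above the range of line 1. The largest change was in chr14:43520001-43530000 (-1.20 ± 0.25, log2, SE; limma adjusted p = 0.00248), which had only 5 to 38 reads per library. It lost its call in 2 of 8 fits that each left out 1 library, and each of the other 4 called members lost it in 1 to 4 of them.

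At chr9:18230001-18250000 both windows were members and higher in line 2. The libraries of line 1 had mean levels of 0.153 to 0.237 and those of line 2 0.307 to 0.401, so that the means of the 2 windows did not overlap between the lines. In the second window alone they overlapped, since p10 Mulas2019 replicate 1 had 0.289 and replicate 2 had 0.250. No gene is annotated there. The changes were 1.08 ± 0.18 (limma adjusted p = 1.39e-05) in chr9:18230001-18240000 and 0.85 ± 0.19 (limma adjusted p = 0.0159) in the next window, which lost its call in 6 of 8 fits that each left out 1 library. The library labelled p20 Keniry2022 replicate 1 had 0.330, within the range of line 2, and that labelled replicate 2 had 0.206, within that of line 1.

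The single called member on chromosome 4, chr4:41820001-41830000, had 0 reads in p10 Mulas2019 replicate 1, entered in the file as 0.9 reads, and 14 to 24 in the other 9 libraries. Its change of 1.38 ± 0.29 (limma adjusted p = 0.00280) became 0.43 (limma adjusted p = 0.867) without that library, and likewise without replicate 2 of that group. In all 8 called members the p20 Keniry2022 libraries lay in the opposite order to their replicate numbers. When all 10 libraries were fitted as labelled, 0 members were called by limma, with 557 (4.45%) at an unadjusted p under 0.05, where 0.00212% and 5.58% of autosomal windows were. When the p20 Keniry2022 numbers were crossed, 11 members (0.0879%) were called, where 0.0178% of autosomal windows were. On the Y chromosome, 136 of 195 windows were called with all 10 libraries as labelled, and 194 of 195 both with the p20 Keniry2022 numbers crossed and without these 2 libraries. The reported Y loss could mark the line of each library, but Y reads of single libraries are not given here.

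**Figure D5:**
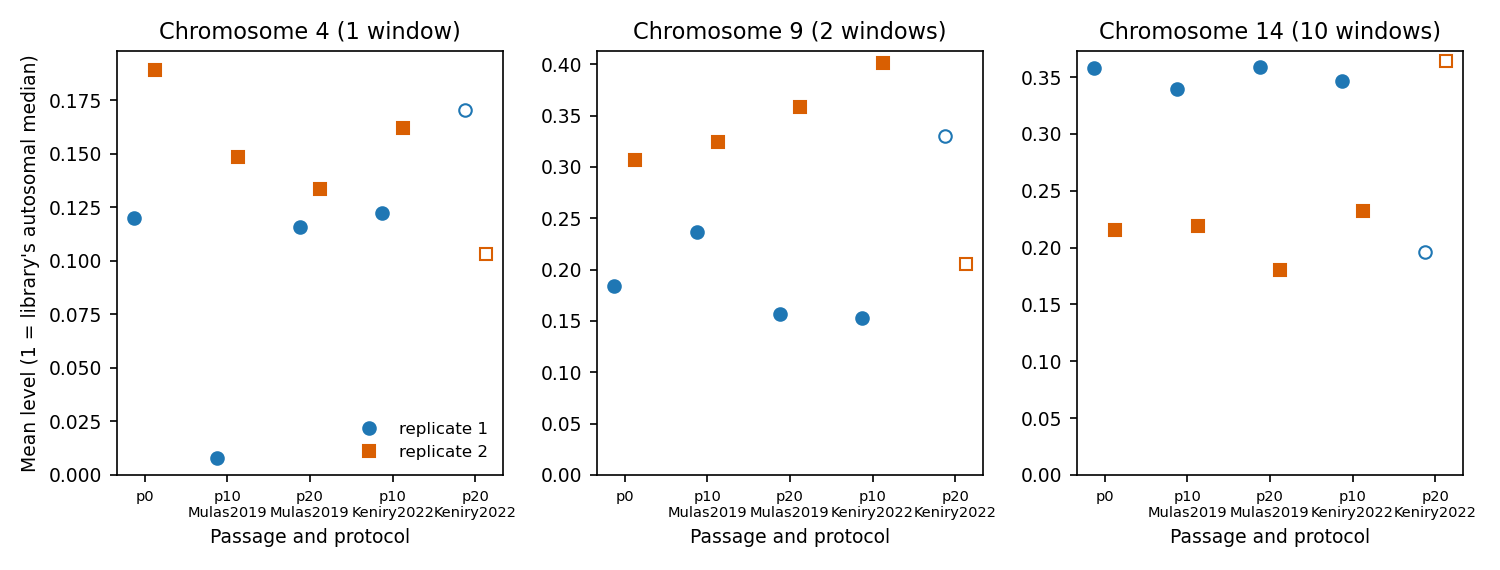
Mean level of the low-count windows at 3 loci that differed between the lines (vertical axis, 1 is the autosomal median of the library) by passage and protocol. Circles are replicate 1 and squares replicate 2, and open symbols are the p20 Keniry2022 libraries, which the test left out. On chromosome 14 filled circles lay at 0.339 to 0.359 and filled squares at 0.180 to 0.232, and the open symbols were in the opposite order. The loci were chosen on the libraries with filled symbols.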

How the data were processed

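Libraries of genomic DNA were sequenced with 75-base single-end reads. According to the submitters' processing notes and the methods, bcl2fastq and Bowtie2 (no versions stated) were used and reads were mapped to mm10. The authors deposited 1 table of log2 values in 10 kb windows, although the methods describe bins of 1 Mb without blacklisted regions. No filter on mapping quality is stated in the labels or methods. From the values, a deposited log2 value was the log2 of reads scaled to the largest library, with 0.9 reads for windows without a read. Whole reads were recovered for 100% of values within 0.1 reads. The table had 0 columns of other samples and no columns of the authors' comparisons. Groups and replicate numbers came from the sample titles. Window ends matched GRCm38 on 21 chromosomes.

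Exact copies were counted on 65 sequences of GRCm38.p6. Fits used limma 3.58.1 in R 4.3.3 (sums, and limma-trend for windows) on the log2 values with 5 groups, 8 contrasts and Benjamini-Hochberg adjustment at 0.05, and the line as a random block (duplicateCorrelation). Libraries with the same replicate number were taken to come from the same line. The methods describe independent lines that were divided at p0, but do not tie the numbers to them. The replicate differences over 1 Mb autosomal bins correlated from -0.33 to 0.47 between the groups without p20 Keniry2022 and from -0.43 to 0.04 with it. Python 3.11.15, numpy 2.4.6, pandas 2.3.3, scipy 1.17.1 and numba 0.67.0 were used, and fits and copy counts were tested on simulated data. Members and gene lists were chosen with earlier results of these data known. Named were the 10 clusters with most members, called members of the line contrast, windows nearest the bounds, the 2 highest and lowest autosomes, and gene families by symbol. The printed windows were chosen after their values were seen. The sequence of 1 further window is not reported here. Histone symbols of the list matched 0 genes.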

Additional observations from a re-analysis of the deposited data

Results flagged for a closer look

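The change of the summed low-count windows against p0 differed between the protocols in a test of the difference itself, in which both protocols share the p0 libraries. Keniry2022 against Mulas2019 gave -0.178 at p10 and -0.0812 at p20 (log2, limma), lower in 19 of 19 autosomes each time. The limma p-values behind this are too small, since the autosomes of a library move together, and with each library as 1 value the difference over both passages did not pass (exact permutation test, p = 0.0571). With GC correction the values were -0.118 and -0.0408, and with the GC of sequence found once -0.0724 and -0.0271, with 12 of 19 autosomes called at p20 in the last setting. Against flanking windows it was -0.0168 at p10 and -0.00765 at p20, which did not pass at p20 (limma, adjusted p = 0.282). The exact permutation test over the libraries of both passages together passed against flanking windows (p = 0.0286). That test treats the libraries of a protocol as independent, although they are the same lines at both passages. The exact sign-flip test over pairs matched for line and passage gave p = 0.125 there.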

How the results depend on the processing

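All 8 changes of the summed share kept their direction under each alternative, and 180 values kept their side of the threshold, whereas 12 did not. Those that no longer passed were, against flanking windows, p10 Keniry2022 (0.0112) and p20 Keniry2022 (0.0109) against p0, Keniry2022 against Mulas2019 at p20 (-0.00765), p20 against p10 in Mulas2019 (-0.00938) and in Keniry2022 (-0.000259), and, with GC of sequence found once, p20 against p10 in Keniry2022 (-0.0195), each also with the p20 Keniry2022 numbers crossed in the replicate block. Leaving out 1 library gave 0.29 to 0.30, 0.14 to 0.14, 0.10 to 0.13 and 0.05 to 0.06 against p0 (p10 and p20 Mulas2019, p10 and p20 Keniry2022), -0.20 to -0.16 and -0.09 to -0.08 between protocols at p10 and p20, and -0.16 to -0.15 and -0.08 to -0.04 from p10 to p20 in Mulas2019 and Keniry2022. The protocol difference of the share ran from -0.213 to -0.135 points of autosomal reads without 1 library. It passed the exact permutation test only against flanking windows (p = 0.0286), and the exact sign-flip test gave p = 0.125 there. In that setting the unit is another, percent of the reads in flanking windows (-0.144, mean of 16.97 in Keniry2022 against 17.12 in Mulas2019). Neither dropping the replicate block (0.29 at p10 Mulas2019) nor making it fixed changed a call of the summed share.

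Counts of members called at p10 Mulas2019 against p0 (2879) were 1515 with a minimum fold of 1.1 (TREAT; 12.1% of members, 15.9% of all windows), 0 with the methods' log2 minimum of 1.1, 3 with GC correction and 14 with GC correction and fixed replicate block (0.112% of members, 0.0798% of all windows), and 1517 to 2953 without 1 library (lowest without p10 Mulas2019 replicate 2). At p20 Mulas2019 (91) they were 180 with no replicate block, 199 with a fixed replicate block, 17 with voom, 1 with a minimum fold of 1.1, and 0 with that log2 minimum, without a filter, or with GC correction with or without the fixed replicate block, and 0 to 117 without 1 library (0 without p20 Mulas2019 replicate 2). At p10 Keniry2022 (2) they were 18 with no replicate block, 21 with a fixed replicate block, 0 under voom, both minimum folds, no filter and both GC corrections, and 0 to 14 without 1 library. At p20 Keniry2022 (0) they were 0 to 1. Between protocols at p10 (360) they were 3 with a minimum fold of 1.1 and 0 with that log2 minimum, without a filter and with both GC corrections, and 7 to 430 without 1 library (7 without p10 Keniry2022 replicate 1). From p10 to p20 in Mulas2019 (154) they were 248 with no replicate block, 268 with a fixed replicate block, 270 with voom, 1 with a minimum fold of 1.1 and 0 with that log2 minimum, without a filter and with both GC corrections, and 15 to 195 without 1 library (15 without p10 Mulas2019 replicate 1). In the remaining 2 comparisons they were 0 to 0. Members that differed between the lines (8) were 0 with all libraries as labelled and 4 to 8 without 1 library (4 without p20 Mulas2019 replicate 1). Clusters of at least 10 members (88) were 52 with an upper bound of 0.4, which leaves fewer members. Except for that and for the fits with fewer libraries, the cause was not tested. Members had a median of 42 to 60 reads per library. At p10 Mulas2019 against p0 the called changes smallest in size were 0.46 and -0.47 (log2). What size of change could be detected at this depth was not tested. The flanking-window and found-once settings and the crossed numbers were chosen after seeing the data.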
